A study of Mus musculus with 15 samples.

Results

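The genes described here encode the subunits of the potassium, sodium and voltage-gated calcium channels. They were chosen by symbol alone (a symbol beginning with Kcn, Cacna1, Cacna2d, Cacnb or Cacng, or Scn followed by a number and a or b, without antisense names) and by a minimum of 10 counts summed over all mice. This gave 126 of the 43629 genes counted, or of the 20196 genes that reached that minimum. A further 8 matching symbols stayed under it. The study asked how ageing and intermittent fasting alter the mouse brain, and RNA of whole brains was sequenced from 15 male wildtype C57BL/6J mice, 1 library per mouse. AL mice had food at all times, and IF mice (called EOD in the study) were fed every other day from 2 months of age. The groups were 4 young AL mice, 3 young IF mice, 4 old AL mice and 4 old IF mice, labelled 3 and 24 months old. Young IF mice had thus been on the diet only briefly, whereas old IF mice had been on it for most of their lives.

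A neuron at rest is held negative mainly by open potassium channels. Voltage-gated sodium channels start the action potential, voltage-gated potassium (Kv) channels end it, and voltage-gated calcium channels turn it into transmitter release, gene expression and pacemaking. Each of these channels has a pore-forming subunit (called alpha, or alpha1 in calcium channels) and auxiliary subunits that set its gating and its delivery to the membrane. Inward rectifiers and two-pore-domain channels set the resting potential of neurons and glia, and calcium- or sodium-activated channels shape what follows a spike. By symbol the 126 genes fell into 38 Kv alpha, 12 Kv auxiliary, 14 inward rectifier, 12 two-pore-domain, 11 calcium- or sodium-activated (with their beta subunits), 9 sodium alpha, 4 sodium beta, 10 calcium alpha1, 4 calcium alpha2delta, 4 calcium beta and 8 calcium gamma genes.

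The potassium channels share a run of 5 codons that encodes the selectivity filter, the narrow part of the pore that lets potassium pass. The run was searched in the longest GENCODE M21 coding sequence of 125 of the 126 genes; Cacng8 was not searched. It was found in 38 of 38 Kv alpha, 14 of 14 inward rectifier, 12 of 12 two-pore-domain and 8 of 11 calcium- or sodium-activated genes, and in none of the genes searched in the sodium, calcium and Kv auxiliary classes. The pattern had been widened after Kcnc and Kcnd genes gave no match, so the Kv alpha count was partly set by that choice. Examples are given as 33 coding bases, 5′ to 3′ on the coding strand (GRCm38), with the 15 bases of the filter in capitals, because this is the sequence that makes these genes a family.
Kcna1, chr6:126642219-126642251, minus strand, exon 2 of 2: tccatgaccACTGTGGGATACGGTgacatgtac
Kcnf1, chr12:17175052-17175084, minus strand, exon 1 of 1: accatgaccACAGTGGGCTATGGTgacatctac
Kcnq3, chr15:66023722-66023754, minus strand, exon 6 of 15: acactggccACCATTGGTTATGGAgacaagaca
Kcnh7, chr2:62777334-62777366, minus strand, exon 8 of 16: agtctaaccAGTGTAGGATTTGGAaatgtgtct
Kcnj10, chr1:172369293-172369325, plus strand, exon 2 of 2: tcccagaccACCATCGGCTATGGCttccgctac
Kcnk1, chr8:126025320-126025352, plus strand, exon 2 of 3: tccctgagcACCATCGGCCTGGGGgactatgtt

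Although the filter is shared, its codons were not: the 84 runs found held 73 different 15-base sequences, and the most frequent stood in 5 of them. The fourth codon was TAT or TAC in 30 Kv alpha genes and TTT or TTC in the other 8, which were the 8 Kcnh genes (the ether-a-go-go family), as in Kcnh7 above. Each two-pore-domain gene held the run 2 times, since 1 subunit carries 2 pore loops. The first 33-base window lay across an exon boundary in 12 of 12 of these genes, and the second in 0 of 12. The fourth codon of the second run was TTT or TTC in 9 genes and CTN in 3, as in Kcnk1 above.

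Totals ranged from 5198748 to 13610729 counts per mouse, and the files name 3 sequencing lanes. The third young AL mouse stood apart. It had the largest total but the fewest genes with a count, 17280 against 19054 to 20880, and its median correlation with the others across genes was 0.9573 against 0.9801 to 0.9873. Of the 114 channel genes tested, 5 (4.39%) were more than 2-fold from the mean of the other young AL mice in this mouse, as were 8.84% of all genes. Results are therefore given with all 15 mice and, where they rest on it, with the other 14. The brain label held against its markers, since the 10 neuronal markers were detected in every mouse with a summed level of 9650 to 12100 CPM (a gene's counts relative to the library total, the usual per-million scale, with totals scaled by TMM factors). The 7 pituitary markers summed to 1040 CPM in the fourth old AL mouse and 18.2 in the third, against 0.719 to 8.19 in the other mice. The part of such tissue in any difference was not tested.

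To compare genes, CPM was divided by gene length in kb. The sodium beta subunits anchor and modulate the alpha subunits. Scn2b was at 78.7 ± 3.73 CPM per kb (SD, n = 15 mice), Scn4b at 63.4 ± 8.12 and Scn3b at 31.1 ± 2.05. These were above 27.5 CPM per kb, the level of Scn8a, the third of the sodium alpha genes. Among the alpha genes Scn2a (46.0 ± 5.06 CPM per kb) stood first. Scn1a (28.4 ± 3.28), the channel of inhibitory interneurons, and Scn8a (27.5 ± 2.65), the channel of the axon initial segment, did not differ beyond their spread, with Scn1a higher in 9 of 15 mice. Scn3a, prominent in the developing brain, was at 5.31 ± 0.514, and Scn10a, known from sensory neurons, was lowest of those tested at 0.11 ± 0.0702 CPM per kb.

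The Kv alpha class holds the channels that end the action potential and set firing patterns. Kcnf1 (36.7 ± 4.74 CPM per kb), whose product is silent alone and modifies other Kv channels, and Kcna1 (35.7 ± 2.79), a channel of axons, led and could not be ordered, with Kcnf1 higher in 9 of 15 mice. Kcnd2, the A-type channel of dendrites, was at 31.4 ± 1.99, and Kcna2 at 27.2 ± 5.64. Kcnh8 was the lowest of the 36 tested at 0.394 ± 0.165 CPM per kb. Of the auxiliary genes, Kcnab2 (63.1 ± 5.48), a cytoplasmic partner of Kcna channels, and Kcnip3 (37.3 ± 3.48), a calcium-binding partner of Kcnd channels, stood highest.

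Of the other potassium channels, Kcnj10 (56.2 ± 4.12 CPM per kb), the inward rectifier of astrocytes, exceeded Kcnj3 (37.4 ± 5.29), a G protein-gated neuronal channel, and Kcnk1 (42.3 ± 2.88) exceeded every other two-pore-domain gene. Kcnma1, the large-conductance calcium-activated channel, was at 16 ± 2.7 CPM per kb. Calcium alpha1 genes lay lower and closer together. Cacna1b (10.4 ± 1.14), the N-type channel, and Cacna1a (9.7 ± 1.24), the P/Q-type channel, both of presynaptic terminals, led, and 8 of the 10 lay between 3.42 and 10.4 CPM per kb. The highest genes classed by symbol as auxiliary to calcium channels stood above all alpha1 genes. Cacng7, whose product belongs to the AMPA receptor auxiliary proteins, was at 63.3 ± 4.76. Cacnb4 was at 51.0 ± 6.67, Cacnb3 at 44.9 ± 3.9 and Cacna2d1, the binding site of gabapentin, at 40.6 ± 4.15.

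A filter on low counts kept 114 of the 126 genes. The 12 that did not pass were Kcnq1, Kcna10, Kcnrg, Kcne3, Kcnj14, Kcnj15, Kcnk7, Kcnk15, Kcnn4, Scn11a, Cacna1f and Cacng1, with mean levels of at most 0.761 CPM. Nothing is said about their change. The other 114 were tested in 1 edgeR fit of the 4 group means over all 15864 genes that passed, with a false discovery rate (FDR) under 0.1 as the threshold. The p-values measure the spread between these mice.

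Age averaged over both diets gave the clearest differences, and they were small. With all 15 mice, 3 channel genes passed the threshold and all 3 were lower in old mice, 2.63% of those tested against 2.3% of all genes, or 0.681% when only lower genes are counted. They were Kcnh7, a Kv channel of the ether-a-go-go-related kind, Kcnf1 and Cacna1a. With the third young AL mouse left out, 2 channel genes passed (2.56% of all genes did): Kcnh7, again lower, and Scn7a, a sodium alpha relative that responds to sodium rather than to voltage, which was higher. Kcnh7 was thus the only channel gene to pass in both of these fits. These calls were fragile: with the replicate number as a block, or at an FDR of 0.05, 0 channel genes passed. Calls over all genes fell too, from 365 to 250 with the block and to 229 at an FDR of 0.05. The replicate number did not pair the mice, so the block says little about these genes in particular. With each mouse left out in turn Kcnh7 passed in 7 of 15 fits, Cacna1a in 4, Kcnf1 in 2 and Scn7a in 2. Kcnh7 did not pass without the first young AL mouse, young IF mouse 1 or 2, old AL mouse 2, 3 or 4, or old IF mouse 2 or 4 (each left out alone). In whole tissue, fewer cells of a type and less RNA per cell cannot be told apart.

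Kcnh7 (ENSMUSG00000059742, chr2:62693414-63184287, minus strand) was at 209, 167, 162 and 160 CPM in young AL mice, at 208, 193 and 158 in young IF mice, at 158, 152, 121 and 150 in old AL mice and at 158, 124, 173 and 127 in old IF mice. Old AL mice lay below every young AL mouse, whereas the IF groups overlapped through 1 young mouse at 158 and 2 old mice at 158 and 173. The log2 fold change was −0.31 (SE 0.0852, FDR 0.0831) with 15 mice and −0.32 (SE 0.0875, FDR 0.0738) with 14. Within lanes the difference of old minus young mice was −0.29, −0.37 and −0.1 on the log2 scale. The 3 lanes held 3, 3 and 1 young mice and 2, 3 and 3 old mice. The third value thus rests on 1 young mouse, of the AL group, and diets were not matched within lanes.

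Cacna1a (ENSMUSG00000034656, chr8:84388440-84640246, plus strand), the pore of the P/Q-type channel that drives transmitter release, was at 130, 101, 125 and 131 CPM in young AL mice, at 127, 130 and 102 in young IF mice, at 98.9, 111, 95.3 and 106 in old AL mice and at 106, 97.3, 105 and 92.4 in old IF mice. The second young AL mouse and the third young IF mouse lay among the old mice, and the other 5 young mice lay above all 8 old mice. The log2 fold change was −0.25 (SE 0.0686, FDR 0.08), and −0.24 without the third young AL mouse (SE 0.0708, FDR 0.113), which no longer passed. Within lanes it was −0.21, −0.23 and −0.38, the last resting on 1 young mouse.

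Kcnf1 (ENSMUSG00000051726, chr12:17172100-17176888, minus strand) was at 193, 183, 230 and 199 CPM in young AL mice, at 183, 199 and 153 in young IF mice, at 172, 172, 173 and 151 in old AL mice and at 165, 162, 143 and 159 in old IF mice. The AL groups did not overlap, the third young AL mouse was the highest of all, and 1 young IF mouse lay among the old mice. The log2 fold change was −0.22 (SE 0.0634, FDR 0.0919), and −0.18 without the third young AL mouse (SE 0.0596, FDR 0.161). Within lanes it was −0.14, −0.18 and −0.4, and the second of these was −0.04 without that mouse. The third rests on 1 young mouse.

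Scn7a (ENSMUSG00000034810, chr2:66673425-66784914, minus strand) was at 8.32, 6.96, 11.2 and 7.36 CPM in young AL mice, at 7.39, 6.19 and 6.44 in young IF mice, at 12.9, 6.56, 8.89 and 9.08 in old AL mice and at 10.5, 11, 14.7 and 9.81 in old IF mice. The IF groups did not overlap and the AL groups did. The log2 fold change was 0.46 (SE 0.15, FDR 0.17) with 15 mice and 0.55 (SE 0.141, FDR 0.0485) with 14. Within lanes it was 0.61, 0.17 and 0.56, and the second of these was 0.44 without the third young AL mouse. The third rests on 1 young mouse. In IF mice alone the log2 fold change was 0.78 (SE 0.224, FDR 0.371) and in AL mice it was 0.15 (SE 0.2, FDR 0.875). The summed level of 9 microglial markers moved the same way. It was 356 to 402 CPM in young mice, 481 to 561 CPM in old AL mice and 454 to 524 CPM in old IF mice. Of these markers, 6 of 9 were higher at FDR 0.1 and all 9 were detected in every mouse. Other marker lists also had a median log2 fold change above 0 with age, among them ependyma (0.35) and blood (0.46), and others had one below 0. The part of any of these in the Scn7a difference was not tested.

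**Figure D1:**
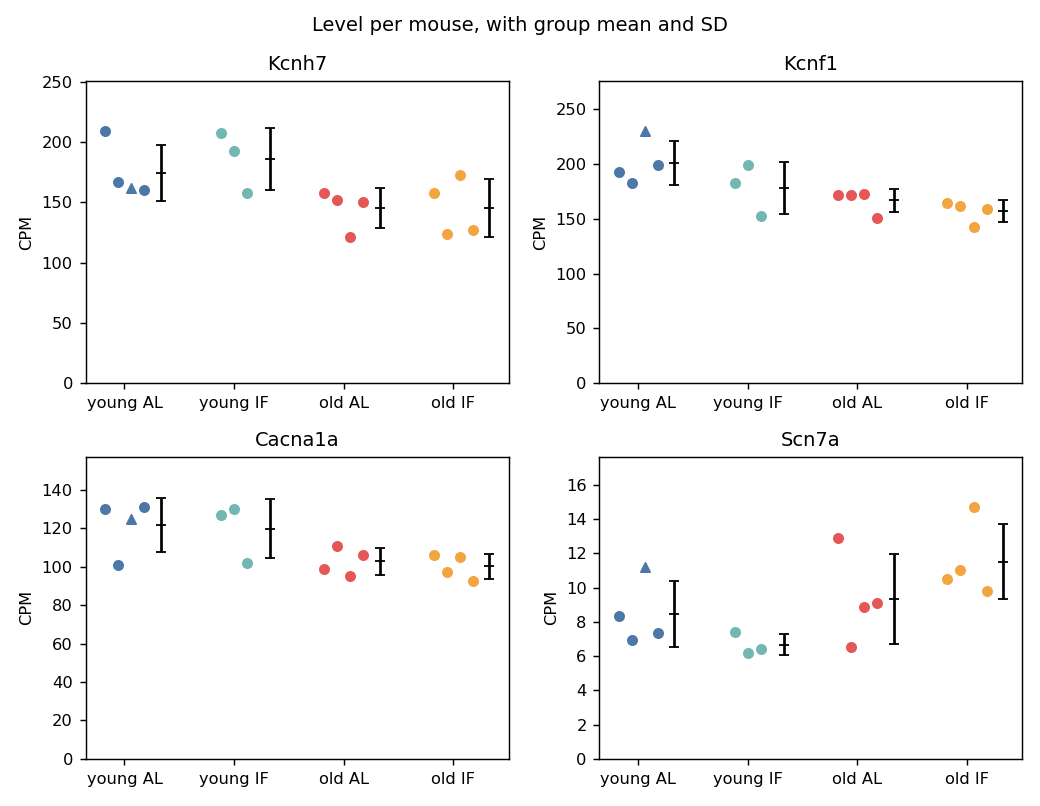
CPM of Kcnh7, Kcnf1, Cacna1a and Scn7a in each mouse by group, with the group mean and SD as bars beside the points. The triangle is the third young AL mouse. Kcnh7, Kcnf1 and Cacna1a sit lower in old mice with some overlap, and Scn7a sits higher in old IF mice (9.81 to 14.7) than in young IF mice (6.19 to 7.39).

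The upstream sequences of the genes that passed are given because both Kcnh7 and Kcnf1 were lower in old mice, to show how far their promoters are alike. Each is shown as the 150 bases just before the RefSeq start (GRCm38.p6), 5′ to 3′, with CG dinucleotides in capitals. Cacna1a had no window in the table used.
Kcnh7, chr2:63184288-63184437, minus strand: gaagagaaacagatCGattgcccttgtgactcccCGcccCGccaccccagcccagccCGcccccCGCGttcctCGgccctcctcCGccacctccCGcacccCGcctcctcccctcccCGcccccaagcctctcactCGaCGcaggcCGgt
Kcnf1, chr12:17176889-17177038, minus strand: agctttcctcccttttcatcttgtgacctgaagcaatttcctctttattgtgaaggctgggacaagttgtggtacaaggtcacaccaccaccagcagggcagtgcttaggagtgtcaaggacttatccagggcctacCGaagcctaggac
Scn7a, chr2:66784911-66785060, minus strand: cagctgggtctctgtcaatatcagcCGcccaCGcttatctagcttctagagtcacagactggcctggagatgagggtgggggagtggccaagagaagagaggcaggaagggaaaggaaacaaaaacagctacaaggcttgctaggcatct
They differed in CG content. Kcnh7 held 14 CG dinucleotides, Kcnf1 held 1 and Scn7a held 2. In the 250 bases upstream, GGGCGG (either strand) stood in the windows of Kcnh7 and Scn7a and not in that of Kcnf1. It stood in 44.2% of the 129 windows of 93 channel genes and in 32.7% of all 32851 windows. The other 3 motifs searched, on both strands, were TATAAA (3.88% of channel gene windows and 12.4% of all windows), CACGTG (4.65% and 6.02%) and TGACGTCA (0.0% and 1.55%), and none of them stood in the 3 windows. A match is a description of the letters only.

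Over the whole family, differences with age leaned to lower values. Of the 114 genes, 86 (75.4%) had a log2 fold change below 0, against 51.5% of all genes, and the median was −0.076 against −0.005. At an unadjusted p under 0.05, 21 channel genes were lower (18.4%, against 5.77% of all genes) and 3 higher (2.63%, against 5.93%), 21.1% in all against 11.7%. Without the third young AL mouse 16 were lower and 4 higher (5.11% and 6.76% of all genes), 85 were below 0 and the median was −0.062. The 10 neuronal markers, of which none passed the threshold, had a median log2 fold change of −0.07 with 15 mice and −0.03 with 14. No channel gene separated all young from all old mice, and 0.901% of all genes did.

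Calcium channel genes, with the gamma genes counted among them by symbol, leaned lower too. All 24 tested had a log2 fold change below 0 with 15 mice, with a median of −0.089, and 23 of 24 did with 14 mice, where Cacnb3 was at 0.02. With each mouse left out the count ran from 19 (without the fourth young AL mouse) to 24, and it was 21 with 14 mice and the replicate block. Of the 24, 8 were lower at an unadjusted p under 0.05, where 5.77% of all genes were. With 14 mice 6 were, where 5.11% of all genes were. Cacna1a alone passed the FDR threshold with 15 mice, as did 2.3% of all genes. The other alpha1 genes among the 8 were the T-type channels Cacna1i (−0.19, SE 0.0634) and Cacna1g (−0.2, SE 0.0801). The alpha2delta genes, which carry calcium channels to the membrane, included Cacna2d1 (−0.17, SE 0.0632), Cacna2d3 (−0.17, SE 0.0816) and Cacna2d4 (−0.44, SE 0.172). Cacna2d3 rested on the third young AL mouse, at 197 CPM against 125 to 152 in the other young AL mice, and was at −0.09 (SE 0.0618) without it. Cacnb4 (−0.19, SE 0.0765) and Cacng3 (−0.16, SE 0.0598), which also serves AMPA receptors, were the others. The mean log2 deviation of the 4 alpha2delta genes lay between −0.031 and 0.242 in young mice and between −0.134 and −0.042 in old mice, and among the 11 such class values it was the only one in which old and young mice did not overlap. The margin, between −0.031 and −0.042, was narrow. The 4 genes count equally in it, and Cacna2d4 was low in level, at 2.93 to 4.31 CPM in young AL mice.

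Potassium channel genes also leaned lower, with genes in both directions. Of the 78 tested, 55 were below 0, where 51.5% of all genes were, and the median was −0.068. At an unadjusted p under 0.05, 12 were lower and 2 higher, where 5.77% and 5.93% of all genes were. Kcnq3, a subunit of the M-current, was at 351, 283, 288 and 293 CPM in young AL mice, at 350, 324 and 248 in young IF mice, at 285, 257, 211 and 262 in old AL mice and at 238, 211, 307 and 248 in old IF mice, with a log2 fold change of −0.28 over both diets (SE 0.0849, FDR 0.139). Kcnv1, which is silent alone and was singled out after its values were seen, was at −0.29 (SE 0.0914, FDR 0.161). Kcnj10 was at −0.11 (SE 0.0486) and Kcnk2, a mechanosensitive channel, at −0.2 (SE 0.0698). The two-pore-domain genes split, with 5 of 10 below 0 and a median of 0.024. Among them Kcnk13, a channel of microglia, was at 11, 9.25, 7.78 and 12 CPM in young AL mice, at 9.24, 10.3 and 9.99 in young IF mice, at 12.1, 14.4, 13.4 and 10.3 in old AL mice and at 14.8, 12.2, 14.4 and 10.5 in old IF mice. Its log2 fold change of 0.36 (SE 0.12, FDR 0.178) did not pass the threshold. The microglial marker sum given above moved in the same direction.

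Sodium channel genes, which start the action potential, were split. Of the 12 tested, 7 were below 0 and the median was −0.038. Scn2a was at 472, 415, 521 and 408 CPM in young AL mice, at 486, 474 and 402 in young IF mice, at 438, 420, 352 and 394 in old AL mice and at 389, 371, 451 and 395 in old IF mice. The groups overlapped, with a log2 fold change of −0.18 (SE 0.0657, FDR 0.246). Scn1a was at −0.12 (SE 0.068) and Scn8a at −0.13 (SE 0.0626), neither past the threshold. Of the beta genes, Scn2b and Scn4b were both at −0.04 and Scn3b was at 0.01.

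**Figure D2:**
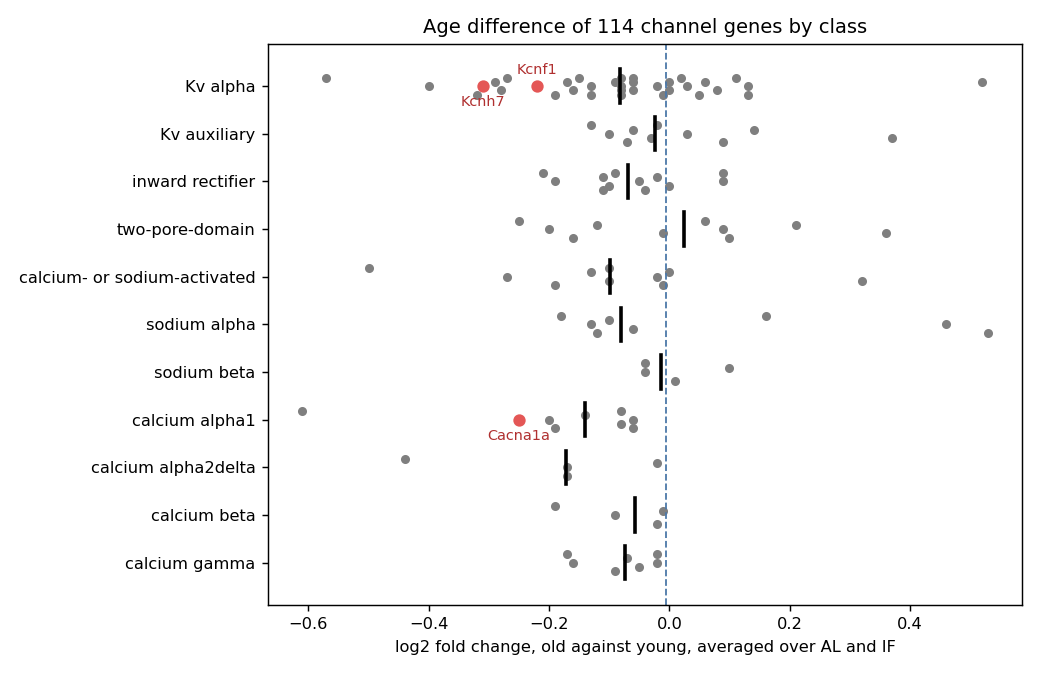
Log2 fold change of old against young mice, averaged over AL and IF, for each of the 114 channel genes tested. Points are genes, black bars class medians, the dashed line the median of all genes (−0.005) and red points the 3 genes past FDR 0.1. The 24 calcium channel genes, in the 4 lowest rows, lie to the left of 0.

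Taken separately, neither diet group gave a channel gene past the threshold. For age in AL mice edgeR called 0 channel genes and 1.09% of all genes, and for age in IF mice 0 and 0.29%; DESeq2 called 0 channel genes in both. At an unadjusted p under 0.05 there were 12 channel genes in AL mice (11 lower, against 4.39% of all genes), 10.5% against 9.52%, and 10 in IF mice (7 lower, against 2.68%), 8.77% against 5.74%. Without the third young AL mouse the 12 became 5 (7.25% of all genes). The median log2 fold change was −0.065 in AL mice and −0.078 in IF mice. Young and old AL mice did not overlap in 3 channel genes (4.56% of all genes), namely Kcnf1 and Kcnh7, which were lower in old mice, and Kcnk1, which was higher. In IF mice the count was 8 (9.04% of all genes), namely Kcng3, Kcnh8, Cacng3, Kcnt2 and Kcnu1, which were lower in old mice, and Scn10a, Scn7a and Kcnk13, which were higher. The calcium gamma genes had a median of −0.111 in AL mice and 0.006 in IF mice, and this difference was not tested. The interaction of age and diet, which tests for each gene whether the age difference depends on diet, gave 0 channel genes and 0.0% of all genes in edgeR, 0 channel genes in DESeq2, and 4 channel genes at an unadjusted p under 0.05 (2.28% of all genes): Scn10a, Kcng3, Cacng7 and Scn7a. Kcng3 was named after its values were seen. Without the third young AL mouse 1 channel gene had such a p (2.59% of all genes).

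Intermittent fasting gave no channel gene past the threshold at either age, in edgeR or DESeq2, and edgeR called 0.0% of all genes. In young mice 6 channel genes had an unadjusted p under 0.05 (5.26%), against 4.14% of all genes. Without the third young AL mouse 5 had such a p (4.39%), against 4.01% of all genes. Of the 6, 3 were lower and 3 higher, and of the 5, 4 were lower and 1 higher. Kcna5 was at 10.1, 9.44, 8.91 and 14.6 CPM in AL mice and at 8.62, 6.71 and 7.89 in IF mice, without overlap, at a log2 fold change of −0.47 (SE 0.193, FDR 0.996). Kcnj16, an inward rectifier that pairs with Kcnj10 in glia, was at 42.7, 38.1, 38.1 and 43.8 CPM in AL mice and at 48.1, 48.1 and 46.3 in IF mice, at 0.23 (SE 0.0983, FDR 0.996). Cacng7, which belongs to the AMPA receptor auxiliary proteins, was at 149, 145, 151 and 155 against 133, 136 and 132, at −0.17 (SE 0.0793, FDR 0.996). These and Kcnip2 were the 4 channel genes whose young diet groups did not overlap (3.51%), against 4.45% of all genes. Without the third young AL mouse 5 channel genes did not overlap (4.39%), against 8.71% of all genes.

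In old mice 3 channel genes had an unadjusted p under 0.05, against 2.58% of all genes, and 5 without the third young AL mouse, against 4.02%. The 3 were Kcnu1 (−0.62, SE 0.281), Kcnip2 (−0.19, SE 0.0872) and Scn10a (1.15, SE 0.544). The old diet groups did not overlap in 6 channel genes (2.59% of all genes), among them Kcng3, Cacna1i and Kcnk4, which were lower in IF mice, and Kcnj10 and Scn10a, which were higher. Kcnj10 was at 299, 284, 279 and 259 CPM in AL mice and at 305, 299, 316 and 310 in IF mice, the 2 groups meeting at 299, with a log2 fold change of 0.13 (SE 0.0661, FDR 1.0). Cacna1i was at 79.2, 81.5, 81.5 and 79.4 against 70.0, 74.9, 69.2 and 72.3, at −0.17 (SE 0.0865, FDR 1.0). Scn10a, at 0.373 to 0.787 CPM in AL and 1.02 to 1.35 in IF mice, rests on 109 counts over all mice. It was also at 1.66 CPM in the third young AL mouse, the highest of all.

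Of the 114 channel genes, 74 were below 0 in this comparison, 64.9% against 49.2% of all genes. By class, Kv alpha genes leaned lower and sodium alpha genes higher in old IF than in old AL mice, with 29 of 36 below 0 (median −0.047) and 7 of 8 at or above 0 (median 0.202). With each mouse left out in turn the Kv alpha count ran from 22 to 32 and the sodium alpha median from 0.144 to 0.249. Among the sodium alpha genes Scn2a (0.0), Scn8a (−0.01) and Scn3a (0.03) were near 0, Scn1a was at 0.19 (SE 0.0927), and the rest were low in level, with at most 11.5 CPM in any group mean. In young mice the medians were −0.004 and 0.058. Over both ages, 13 channel genes had an unadjusted p under 0.05, against 4.51% of all genes, with Kcnip2 (−0.18, SE 0.0643) and Kcnj16 (0.19, SE 0.0669) at the smallest p and an FDR of 0.983.

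**Figure D3:**
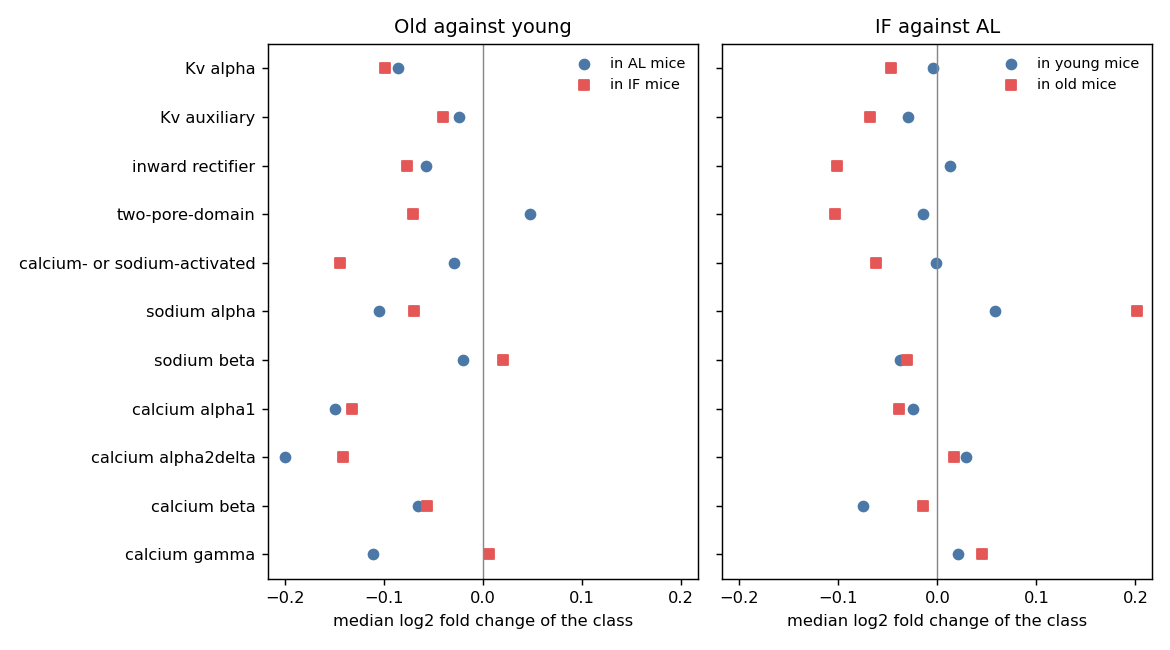
Median log2 fold change of each class for age in AL and in IF mice (left) and for IF against AL in young and in old mice (right). Most classes lie below 0 in both age comparisons. The exceptions are two-pore-domain (0.047 in AL mice), calcium gamma (0.006 in IF mice) and sodium beta (0.02 in IF mice). Sodium alpha is farthest from 0 in old mice on the right (0.202).

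Several channel genes known from 1 region or epithelium are given beside the summed level of markers of that region, as a description; the part of the markers in any difference was not tested. Kcne2, the auxiliary subunit of the choroid plexus, was lowest in the third young AL mouse, at 2.49 CPM, where 9 choroid plexus markers summed to 358 CPM. It was highest in the first old AL mouse, at 7.34 CPM, where they summed to 1090. The order was not the same throughout, since the markers summed to 1270 and 1200 in 2 old IF mice with Kcne2 at 5.78 and 6.49 CPM, and to 1000 in a young IF mouse with Kcne2 at 4.3 CPM. Kcnj13, the inward rectifier of that epithelium, ranged from 3.53 to 11.4 CPM, with the highest value in the same old AL mouse. Over the 4 groups Kcne2 averaged 5.09 ± 1.91 (SD, n = 4), 3.34 ± 0.864 (n = 3), 5.91 ± 1.82 (n = 4) and 4.78 ± 1.58 (n = 4) CPM in young AL, young IF, old AL and old IF mice, so that groups overlapped widely. Scn4b, abundant in striatal neurons, ranged from 235 CPM where 6 striatal markers summed to 377 to 376 CPM where they summed to 660. The striatal sum was highest, at 671, in the second young AL mouse, where Scn4b was at most 359 CPM. Cacng5 was lowest, at 23.0 CPM, in the first young IF mouse, where 5 olfactory bulb markers were also lowest at 17.2 CPM. Their order differed elsewhere. The bulb markers were highest in the first young AL mouse, at 145 CPM, where Cacng5 was at most 41.7 CPM. In the third young AL mouse they summed to 79.2 CPM and Cacng5 was at 50.3 CPM.

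**Figure D4:**
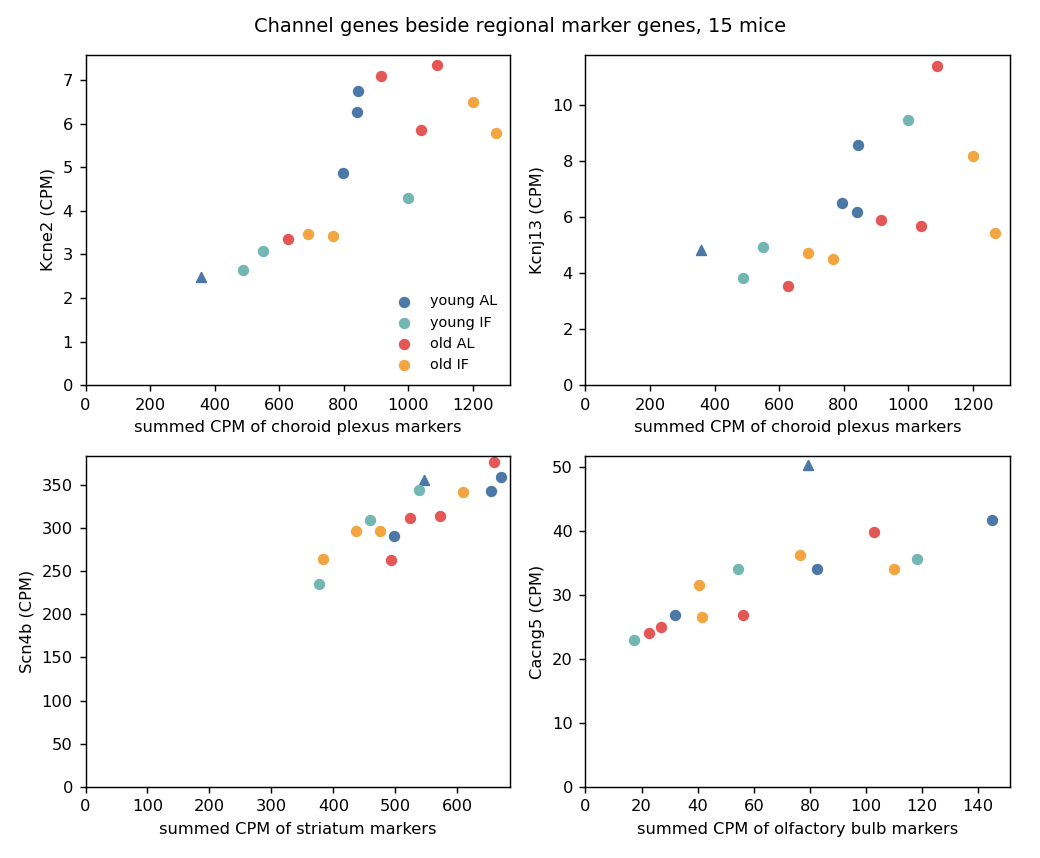
Kcne2 and Kcnj13 against the summed CPM of 9 choroid plexus markers, Scn4b against 6 striatal markers and Cacng5 against 5 olfactory bulb markers, 1 point per mouse coloured by group. The triangle is the third young AL mouse, with Kcne2 at 2.49 CPM and choroid plexus markers at 358.

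Kcnh7 was most like Cadm2, Strbp and Kcnq3 across the 15 mice (Pearson r of log2 CPM 0.959, 0.935 and 0.929, and 0.966, 0.938 and 0.931 without the third young AL mouse). Genes much like Cacna1a were Ptprt and Tet1 (0.886 and 0.878). Kcnf1 was most like Lcmt2, Rimbp2 and Setdb1 (0.912, 0.86 and 0.851, falling to 0.86, 0.776 and 0.752 without that mouse), and Scn7a most like Cgrrf1, Ugdh and Gbp3 (0.84, 0.818 and 0.811). These are descriptions over mice that differ in depth.

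The 48 genes listed as companions of the channels (partners such as Dpp6 and the Fgf11 to Fgf14 proteins, Hcn channels, and the pumps and exchangers that restore ion gradients) gave 45 tested. With age over both diets 2 passed the threshold, against 2.3% of all genes. Atp2b2, a plasma membrane calcium pump, was lower at −0.27 (SE 0.0488, FDR 0.00309) and Atp1b3, a beta subunit of the sodium pump, was higher at 0.26 (SE 0.0554, FDR 0.0172). Both passed with 14 mice too, at FDR 0.00633 and 0.0241. At an unadjusted p under 0.05, 11 were lower and 1 higher, where 5.77% and 5.93% of all genes were, and the median log2 fold change was −0.07. For diet, 0 of the 45 passed, with 0 at an unadjusted p under 0.05 in young and in old mice and 1 over both ages.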

How the data were processed

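Whole-brain RNA of 15 mice was sequenced. Per the labels and file headers, the authors used STAR (version not given in the sources used here) to place trimmed reads on GRCm38 and featureCounts 1.5.0-p1 to assign those of mapping quality 5 or more to Ensembl genes by strand. What they deposited is 1 raw count per gene and mouse. The study calls these counts unique, so reads placed equally well on close relatives may be missing from both.

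Starting from these counts, TMM scaling and the filterByExpr filter were applied in edgeR 4.0.16 under R 4.3.3, and contrasts between the 4 groups were taken from 1 quasi-likelihood model, adjusting p-values over 15864 genes by Benjamini-Hochberg. Standard errors were derived from each log2 fold change and its F statistic, and log2 CPM had a prior count of 2. Totals of 5198748 to 13610729 counts limit precision for genes near or under 1 CPM. Alternatives were DESeq2 1.42.0, RLE size factors, 2 other filters, an FDR of 0.05, a replicate block, lane as a covariate and leaving out each mouse. Fits of 14 mice with the block or with RLE were chosen after seeing the data. The fits were tested on simulated counts.

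Members and gene lists were chosen with earlier results of these data known. Genes were named where they passed the threshold with 15 or 14 mice, had the smallest p of their class for age or diet within a group, were highest or lowest of their class in level, belonged to a list of subunits with textbook roles, or were among the 3 genes most correlated with a gene that passed. Others are said to have been chosen after their values were seen, or are named only to spell out a count. The filter was read as codons for T or S, then V, I, T or L, then G, then Y, F or L, then G. The L in second place was added after Kcnc and Kcnd genes had given no match. Results for some genes are not reported here.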

Additional observations from a re-analysis of the deposited data

Results flagged for a closer look

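Within groups of 4 mice, 252 gene levels and class values were looked at for a mouse far from the other 3, and 16 were found; chance alone gives about 1 in 20. Kcnh7 and Kcnq3 were high in the first young AL mouse (209 and 351 CPM). Cacna2d4 (2.93 CPM), Cacng6 (0.251 CPM) and Kcnt1 (85.1 CPM) stood apart in the fourth young AL mouse, and Kcnk6 (2.57 CPM) in the third. In the second young AL mouse the mean log2 deviation of all channel genes (−0.083) and of Kv alpha genes (−0.148) was below the other 3. Among old AL mice Kcnf1 was low in the fourth (151 CPM) and Kcnh1 apart in the first (86.4 CPM). Among old IF mice Kcnh1 was high in the first (96.8 CPM), Kcnj8 (4.42 CPM), Kcnk4 (2.85 CPM) and Scn3a (72.6 CPM) stood apart in the third, and Cacng8 (21.7 CPM) and Kcnt1 (66.5 CPM) in the fourth. No channel gene moved without overlap in opposite directions in the 2 diets or at the 2 ages.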

How the results depend on the processing

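The number of channel genes past the threshold for age over both diets, 3, was 3 with RLE size factors or with at least 10 counts in every mouse, 2 with lane as a covariate, 5 with DESeq2, 12 with every gene that had a count, and 0 at an FDR of 0.05. It ran from 0 to 6 with each mouse left out (highest without the second young AL mouse), and Kcnh7 passed in 7 of those 15 fits, Cacna1a in 4, Kcnf1 in 2 and Scn7a in 2; none of the 4 changed direction in this comparison in any fit. With every gene that had a count, 6 channel genes passed for age in AL mice and 2 for age in IF mice; otherwise these were 0, apart from 0 to 1 for AL with a mouse left out (Kcnh5, without the second young AL mouse). Diet and the interaction stayed at 0 channel genes in each fit. Scn7a in AL mice ranged from −0.05 (without the first old AL mouse) to 0.33 (without the third young AL mouse). Replicate numbers did not pair the mice: same-numbered mice deviated together with a mean r of −0.0266, against 0.00874 for other numbers. With the number as a block, 0 channel genes passed for age over both diets (1 with 14 mice, Scn7a). Over all genes, age over both diets gave 365 calls, and 229 to 653 across the other settings and 216 to 425 with a mouse left out; age in AL mice 173 (444 with every counted gene, 266 with DESeq2); age in IF mice 46 (100 and 73; 19 to 76 with a mouse left out, 76 without the third young AL mouse); diet and the interaction 0 (26 to 65 with every counted gene, 1 for diet in young mice with DESeq2 and 2 for diet in old mice with lane as a covariate). Genes under about 1 CPM, such as Scn10a and Kcng3, are too shallow here to show small differences.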
